A study of Mus musculus with 14 samples.

Results

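Gene expression was compared between evolving and dependent leukaemias of a mouse T-cell acute lymphoblastic leukaemia (T-ALL) model, named VTL in the labels, in mice that received no doxycycline (Dox). The libraries were chosen by the labels alone: 3 evolving tumours, numbered VTL-153, VTL-25, VTL-21, and 2 dependent tumours, numbered VTL-24, VTL-19, which make up 5 of the 14 libraries of the series. In this model Lmo2 is the inducing oncogene, and the labels class each tumour by its relation to Lmo2 as dependent, evolving or independent. Both classes shared the same history. Thymocytes were first injected into sublethally irradiated F1 mice carrying C57BL/6-Ly5.1 and FVB genomes, and frozen leukaemia cells were then passed into C57BL/6-Rag1-/- mice, a host that makes no mature T or B cells of its own. RNA came from CD45.1 and CD45.2 double-positive donor cells sorted from the spleen. The labels give neither the promoter that drives Lmo2, nor the genotype of the donors, nor the way Dox acts on Lmo2. No dependent tumour with Dox is among the libraries used here, so the comparison describes the tumours without Dox only (0 mg/kg in the food). Each library stands for 1 tumour. A p-value therefore measures spread between tumours. With 3 tumours against 2, an exact two-sided rank-sum test of a single gene could not give a p below 0.2. The spread was for this reason estimated over 8 libraries, adding the 3 independent tumours without Dox.

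LMO2 is a LIM-only adaptor that binds no DNA itself. It bridges basic helix-loop-helix pairs of TAL1 or LYL1 with E proteins to GATA factors through LDB1, and thereby holds together a complex that controls genes of blood stem and progenitor cells. Thymocytes normally switch Lmo2 off as they commit to the T lineage; sustained expression lets thymocytes self-renew and precedes T-ALL. Ikaros, encoded by Ikzf1, is a zinc-finger factor that restrains Notch target genes and acts as a tumour suppressor in this lineage.

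The 5 libraries held between 18753251 and 24048281 counts over the 12421 genes listed. The T-cell identity of both classes was visible in the CD3 chains and the kinase Lck. Cd3e stood at 293, 274 and 305 CPM (counts scaled by library size) in the evolving tumours (libraries VTL-153, VTL-25, VTL-21), against 234 and 325 CPM in the dependent tumours (libraries VTL-24, VTL-19). Lck stood at 1436, 1136 and 1122 CPM in evolving tumours, against 903 and 995 CPM in dependent tumours, in the same library order, which is kept below. Markers of other lineages were present too. The listed B-cell markers summed to 450, 313 and 765 CPM in evolving tumours, against 407 and 315 CPM in dependent tumours. Erythroid markers summed to 171, 196 and 293 CPM in evolving tumours, against 340 and 225 CPM in dependent tumours. Summed over 21 myeloid markers, whose classes overlapped, the level was 294, 330 and 27.8 CPM in evolving tumours, against 45.3 and 163 CPM in dependent tumours. The 2 megakaryocyte and platelet markers tested differed in direction. Itgb3 stood at 7.80, 15.8 and 7.33 CPM in evolving tumours, against 27.8 and 26.1 CPM in dependent tumours, without overlap (50% of the list, beside 9.55% of all genes). Itga2b overlapped, at 1.35, 1.48 and 0.629 CPM in evolving tumours, against 0.935 and 0.473 CPM in dependent tumours. Immunoglobulin transcripts varied from library to library: Igkc stood at 4.30, 36.5 and 353 CPM in evolving tumours, against 0.0468 and 163 CPM in dependent tumours. In bulk RNA, fewer cells of a type and less RNA per cell cannot be told apart.

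How alike the tumours were sets the scale for the comparison. VTL-153 and VTL-25 were close: log2 CPM correlated with r = 0.973 across genes, and 3 genes exceeded 20 CPM in one and lay under 0.5 CPM in the other. VTL-21 differed from both, with 42 such genes against VTL-153 and 31 against VTL-25. The dependent tumours differed from each other more than that, with r = 0.903 and 57 such genes. Pairs of 1 evolving and 1 dependent tumour had between 21 and 80. Apart from VTL-153 and VTL-25, the pairs within a class thus lay within the range of the pairs across classes. These correlations run across genes, which share libraries and are not independent replicates. Whether VTL-153 and VTL-25 arose from a common source was not tested; the labels number them as separate tumours.

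**Figure D1:**
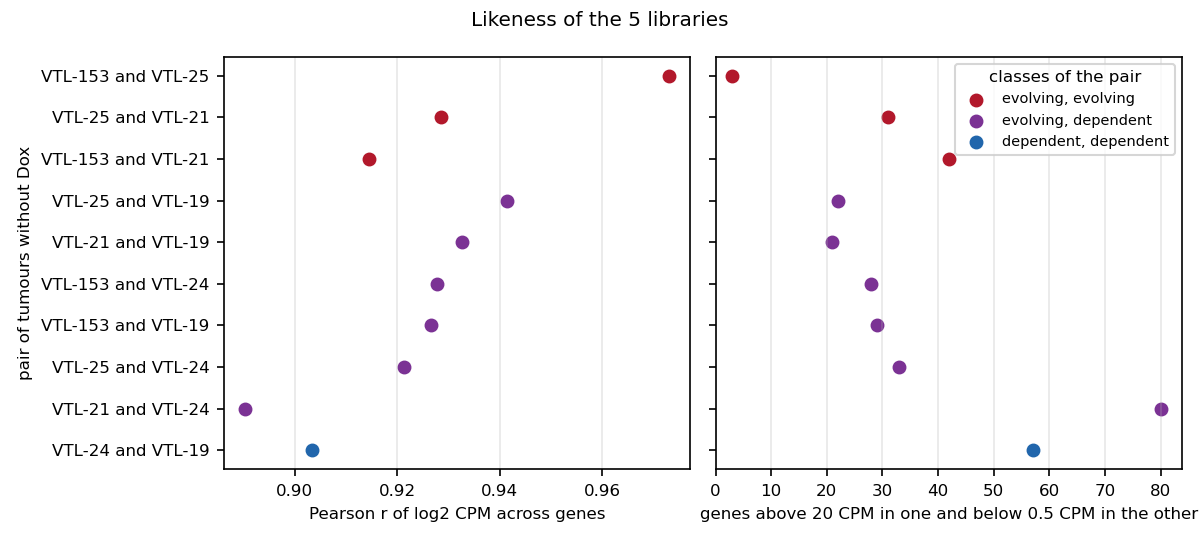
Likeness of the 5 libraries without Dox, 1 point per pair of tumours, coloured by the classes of the pair. The left panel gives Pearson's r of log2 CPM across genes, and the right panel the number of genes above 20 CPM in one library and under 0.5 CPM in the other. VTL-153 and VTL-25 stand apart with r = 0.973 and 3 such genes, while VTL-24 and VTL-19, both dependent, reach r = 0.903 and 57.

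Lmo2 (ENSMUSG00000032698, chromosome 2, 103957986 to 103981878 on mm10) was measured at 708, 515 and 303 CPM in evolving tumours, against 142 and 120 CPM in dependent tumours. Every evolving tumour lay above both dependent ones. The mean was 509 ± 203 CPM in evolving tumours (SD, n = 3) and 131 ± 15.4 CPM in dependent tumours (SD, n = 2). The log2 fold change, evolving minus dependent, was 1.96 with an approximate SE of 1.55 and did not pass (edgeR adjusted p = 1.00). The spread that enters this SE includes the independent tumours, in which Lmo2 stood at 9.28 CPM in VTL-44, 600 CPM in VTL-33 and 27.2 CPM in VTL-81. Ikzf1 did not separate the classes: it stood at 1421, 952 and 938 CPM in evolving tumours, against 1450 and 953 CPM in dependent tumours. Its log2 fold change was −0.12 (SE 0.29, edgeR adjusted p = 1.00), and without VTL-24 it was 0.21. Among the other members of the Ikaros family Ikzf3 stood at 191, 70.0 and 50.1 CPM in evolving tumours, against 102 and 39.6 CPM in dependent tumours, and Ikzf2 at 104, 146 and 111 CPM, against 112 and 181 CPM. Their classes overlapped too, as did those of Ikzf4 and Ikzf5.

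LMO2 and its partners were tested as 14 genes, Lmo2 included, of which 0 passed, 9 had a positive and 5 a negative log2 fold change, and the median was 0.09, beside 0.01 over all genes. The 12348 genes tested divided into 6420 positive and 5925 negative. Ssbp3, which stabilises LDB1, stood at 229, 283 and 266 CPM in evolving tumours, against 138 and 211 CPM in dependent tumours. Gata3, the GATA factor of T cells, stood at 79.8, 101 and 112 CPM in evolving tumours, against 203 and 155 CPM in dependent tumours, with a log2 fold change of −0.88 (SE 0.46, edgeR adjusted p = 1.00). Neither gene's classes overlapped, but each difference fell short of the threshold. Ldb1, the bridging subunit, stood at 255, 226 and 277 CPM in evolving tumours, against 249 and 348 CPM in dependent tumours, and Lyl1 at 52.0, 105 and 102 CPM, against 103 and 59.6 CPM. Tal1 was under 0.5 CPM in all 5 libraries. The E-protein genes Tcf3, Tcf12 and Tcf4 overlapped between the classes.

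Across the transcriptome no gene passed the threshold. Of 12348 genes tested with edgeR, 0 had an adjusted p under 0.05, and 419 (3.39%) had an unadjusted p under 0.05, 160 higher (1.30%) and 259 lower (2.10%) in evolving tumours. The voom fit of limma also called 0 genes. DESeq2 called 64 of 12227 (0.523%), 31 higher (0.254%) and 33 lower (0.270%), and 60 of the 64 had classes that did not overlap. In all, the classes did not overlap in 2406 genes (19.5%), 1227 higher (9.94%) and 1179 lower (9.55%). The median absolute log2 fold change over all genes was 0.196, beside a median SE of 0.291. The genes described next are those with the smallest p in each direction, a log2 CPM averaging 1 or more, and classes that did not overlap. None passed with edgeR. By DESeq2 14 of the 15 higher and 13 of the 15 lower ones passed. The choice of genes fixes these counts, which are a description.

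Cdkn2a, Tet2 and Spib were among the 15 genes higher in evolving tumours. Cdkn2a, whose locus encodes an inhibitor of cyclin D kinases and the ARF protein that stabilises p53, stood at 190, 182 and 117 CPM in evolving tumours, against 1.26 and 5.41 CPM in dependent tumours. Its mean was 163 ± 39.6 CPM in evolving tumours (SD, n = 3) and 3.34 ± 2.93 CPM in dependent tumours (SD, n = 2). Every evolving tumour therefore held far more of this transcript than either dependent one, and the log2 fold change of 5.61 had an SE of 1.08 (edgeR adjusted p = 0.814, DESeq2 3.43e-09). The independent tumours without Dox had 19.0, 3.21 and 4.53 CPM, and the evolving tumours with Dox 4.50, 279 and 110 CPM in the order given. Tet2, which encodes a methylcytosine dioxygenase lost in many blood cancers, stood at 18.9, 21.1 and 32.3 CPM in evolving tumours, against 2.29 and 1.73 CPM in dependent tumours (log2 fold change 3.58, SE 0.75). Spib, an Ets factor of B cells and plasmacytoid dendritic cells, stood at 23.8, 15.0 and 37.2 CPM in evolving tumours, against 1.68 and 1.42 CPM in dependent tumours (log2 fold change 4.02, SE 0.71). For both genes the lowest evolving value was several times the highest dependent one. The T-ALL tumour suppressor list, which holds Cdkn2a, did not run one way: of its 23 genes tested 13 were positive and 10 negative (median 0.02), with 4 higher and 5 lower without overlap (17.4% and 21.7%, beside 9.94% and 9.55% of all genes).

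Cd79b shared this pattern with Spib. This signalling chain of the B-cell receptor stood at 16.7, 14.3 and 15.1 CPM in evolving tumours, against 0.140 and 0.420 CPM in dependent tumours. The immunoglobulin genes did not follow it: Ighg2c stood at 0.400, 6.49 and 270 CPM in evolving tumours, against 0 and 80.6 CPM in dependent tumours, and Jchain at 0.400, 10.8 and 67.5 CPM, against 0.140 and 31.9 CPM. VTL-21 and VTL-19, 1 of each class, were the high libraries for both. Of the 12 B-cell markers tested 10 had a positive log2 fold change (median 1.03, and 0.36 without VTL-153 or 1.75 without VTL-19), and 2, Spib and Cd79b, did not overlap (16.7%, beside 9.94% of all genes). The part of B-lineage cells in the values of Spib was not tested.

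The remaining higher genes had varied roles. Cpsf4l, a relative of a polyadenylation factor, had the smallest p of this direction and stood at 25.9, 14.5 and 39.1 CPM in evolving tumours, against 1.40 and 1.21 CPM in dependent tumours (log2 fold change 4.34, SE 0.66, edgeR adjusted p = 0.717). Map7, a microtubule-binding protein, stood at 110, 84.9 and 89.7 CPM in evolving tumours, against 20.6 and 39.3 CPM in dependent tumours. Rgs3, which shortens G-protein signals, showed little spread within a class, with 40.5, 42.0 and 37.1 CPM in evolving tumours, against 21.5 and 23.5 CPM in dependent tumours. Large ratios thus stood beside small, tight ones. Bcas1 was spread widely among evolving tumours at 34.7, 18.5 and 4.58 CPM, against 0.187 and 0.0526 CPM in dependent tumours. Card10, a scaffold of NF-kB signalling, had a similar spread, at 22.4, 5.33 and 4.22 CPM in evolving tumours, against 0.187 and 0.473 CPM in dependent tumours. In both genes VTL-153 was the highest library. Gzf1, a zinc-finger gene, stood at 135, 98.3 and 160 CPM in evolving tumours, against 35.9 and 45.6 CPM in dependent tumours, and Tifab at 20.6, 21.9 and 14.8 CPM, against 0.655 and 2.10 CPM. Lynx1, Ppm1e, Cactin, Abcd3 and Rac3 completed the 15, with log2 fold changes between 0.51 for Cactin and 2.89 for Lynx1.

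Mtx3 and Zbed3 had the smallest p among the 15 genes lower in evolving tumours. Mtx3, a metaxin of the mitochondrial outer membrane, stood at 5.80, 5.89 and 8.27 CPM in evolving tumours, against 23.5 and 28.1 CPM in dependent tumours. Its mean was 6.65 ± 1.40 CPM in evolving tumours (SD, n = 3) and 25.8 ± 3.21 CPM in dependent tumours (SD, n = 2), a log2 fold change of −1.95 (SE 0.22, edgeR adjusted p = 0.240, DESeq2 1.16e-10). Zbed3, an axin-binding zinc-finger gene, stood at 9.90, 6.97 and 8.09 CPM in evolving tumours, against 32.96 and 21.7 CPM in dependent tumours (log2 fold change −1.71, SE 0.27, edgeR adjusted p = 0.717). Both genes lie on chromosome 13, 2465382 bases apart. Of the 11 tested genes between them 0 had classes that did not overlap, beside 19.5% of all genes, and the smallest unadjusted p was 0.148, for Jmy.

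The other lower genes included 4 transporter genes and a kinase of T-cell receptor signalling. Slc2a3, a glucose transporter, stood at 74.8, 62.0 and 42.4 CPM in evolving tumours, against 189 and 112 CPM in dependent tumours (log2 fold change −1.33, SE 0.31). Slc7a3, which carries cationic amino acids, stood at 0.600, 0.321 and 0.315 CPM in evolving tumours, against 39.1 and 6.99 CPM in dependent tumours. The difference between the dependent tumours was larger here than any within the evolving class. Slc35d1, a nucleotide-sugar transporter, stood at 33.7, 34.3 and 49.4 CPM in evolving tumours, against 97.0 and 73.6 CPM in dependent tumours. Slc12a2, the sodium-potassium-chloride cotransporter, was at most 1.60 CPM in evolving tumours, against at least 7.62 CPM in dependent tumours. Prkcq, the protein kinase C of the T-cell synapse, stood at 191, 154 and 147 CPM in evolving tumours, against 255 and 258 CPM in dependent tumours (log2 fold change −0.64, SE 0.14). Cers6, a ceramide synthase, stood at 55.5, 58.8 and 52.6 CPM in evolving tumours, against 95.7 CPM in both dependent tumours. These last genes differed modestly, with little spread within either class. Acsl5, a fatty acyl-CoA synthetase, stood at 134, 171 and 147 CPM in evolving tumours, against 219 and 255 CPM in dependent tumours. Btbd11, Ube2w, Ccdc62, Zadh2, Zdhhc24 and Cd2ap completed the 15.

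**Figure D2:**
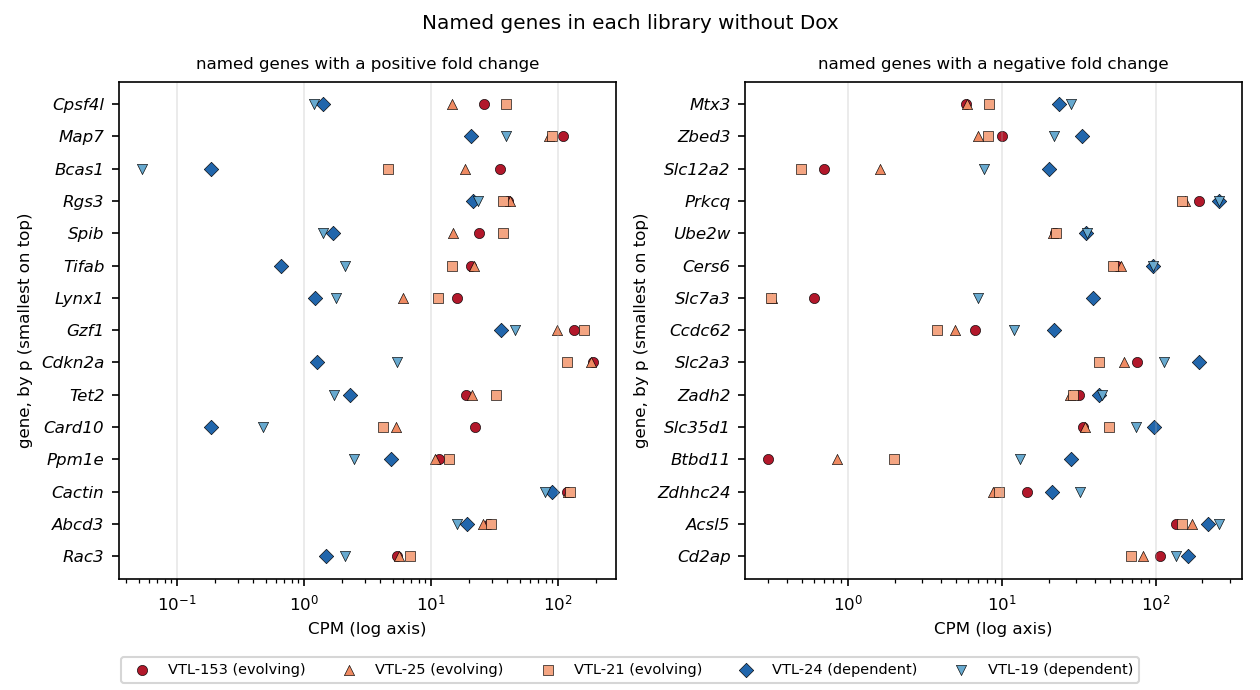
CPM on a log axis of the 15 higher (left) and 15 lower (right) genes, ordered by p, with 1 point per library, red for evolving and blue for dependent tumours. Cdkn2a runs from 117 to 190 CPM in evolving tumours, against 1.26 to 5.41 CPM in dependent tumours, while Rgs3 and Prkcq differ by less with little spread.

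The promoters of the first 2 higher and the first 2 lower of these genes are shown because they let the letters at the start of the gene be compared with the motifs of the LMO2 complex and Ikaros. They are 300 bases each, from 250 before to 50 after the RefSeq start on GRCm38.p6, written 5′ to 3′ on the gene's strand. Capitals mark CAGNTG on either strand (written CANCTG where it lies on the other strand). It is the E-box bound by E proteins and their TAL1 or LYL1 partners. In the windows shown Map7 and Zbed3 hold 2 each, Mtx3 holds 1 and Cpsf4l holds 0. Zbed3 has 3 listed promoters and Cpsf4l 2, of which only the first of each gene is shown. Neither TGGGAA, an Ikaros core, nor the GATA motif AGATAA is in any of the 4 windows on either strand. Over 32851 promoters of the same length, CAGNTG is in 51.4%, TGGGAA in 25.6% and AGATAA in 11.2%. Cpsf4l lies at chr11:113709968-113710267 on the minus strand, and Map7 at chr10:20148670-20148969, Mtx3 at chr13:92844518-92844817 and Zbed3 at chr13:95323355-95323654 on the plus strand.
Cpsf4l: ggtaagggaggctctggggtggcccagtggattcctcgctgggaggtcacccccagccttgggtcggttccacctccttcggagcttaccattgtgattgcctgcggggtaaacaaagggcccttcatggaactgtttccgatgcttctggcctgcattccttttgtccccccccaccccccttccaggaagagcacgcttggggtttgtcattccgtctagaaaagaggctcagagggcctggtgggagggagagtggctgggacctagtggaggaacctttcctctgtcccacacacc
Map7: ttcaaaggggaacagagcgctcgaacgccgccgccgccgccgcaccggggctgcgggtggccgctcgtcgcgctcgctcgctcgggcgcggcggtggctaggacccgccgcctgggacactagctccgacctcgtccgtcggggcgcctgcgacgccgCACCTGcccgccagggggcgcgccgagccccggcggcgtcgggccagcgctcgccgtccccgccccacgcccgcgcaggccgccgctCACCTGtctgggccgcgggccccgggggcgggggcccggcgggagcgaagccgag
Mtx3: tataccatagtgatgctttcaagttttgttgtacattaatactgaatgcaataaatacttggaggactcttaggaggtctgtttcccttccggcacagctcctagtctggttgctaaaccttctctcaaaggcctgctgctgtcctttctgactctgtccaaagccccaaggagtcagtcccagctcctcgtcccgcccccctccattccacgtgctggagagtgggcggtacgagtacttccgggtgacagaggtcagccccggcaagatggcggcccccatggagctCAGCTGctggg
Zbed3: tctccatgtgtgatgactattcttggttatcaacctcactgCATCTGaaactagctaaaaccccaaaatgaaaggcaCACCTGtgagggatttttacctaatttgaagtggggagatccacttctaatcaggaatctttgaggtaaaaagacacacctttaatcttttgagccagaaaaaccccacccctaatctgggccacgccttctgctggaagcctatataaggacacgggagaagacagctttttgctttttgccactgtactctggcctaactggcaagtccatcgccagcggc

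T-cell receptor beta segments separated the classes by large ratios. Reads from the rearranged beta locus carry the V segment that a clone has joined. Shown are the last 90 bases, in the GENCODE M21 transcripts, of the 2 most abundant beta V segments of the evolving tumours (Trbv24 and Trbv13-1), of the leading one of the dependent tumours (Trbv2) and of Trbv13-2, which resembles Trbv13-1, so that alike and unlike segments can be told apart. Capitals mark TGTGCCAGC, the codons for cysteine, alanine and serine that open the junction.
Trbv24: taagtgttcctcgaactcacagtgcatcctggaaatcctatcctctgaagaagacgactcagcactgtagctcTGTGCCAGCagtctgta
Trbv13-1: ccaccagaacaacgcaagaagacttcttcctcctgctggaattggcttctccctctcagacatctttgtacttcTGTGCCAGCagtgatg
Trbv13-2: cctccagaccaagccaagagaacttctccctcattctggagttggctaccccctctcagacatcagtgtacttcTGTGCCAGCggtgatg
Trbv2: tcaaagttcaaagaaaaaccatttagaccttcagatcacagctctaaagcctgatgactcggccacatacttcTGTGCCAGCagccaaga
Over the whole transcripts Trbv13-1 and Trbv13-2 are identical at 299 of 369 aligned positions, so reads may be split between them, whereas Trbv24 and Trbv13-1 are 51.0%, Trbv24 and Trbv2 43.3% and Trbv13-1 and Trbv2 43.2% identical.

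Trbv24 (chromosome 6, 41218091 to 41218557, a V pseudogene in the annotation) stood at 366, 238 and 242 CPM in evolving tumours, against 0 and 0.158 CPM in dependent tumours. It held 77.5%, 78.7% and 84.6% of the counts of the 12 listed beta V segments in evolving tumours. Trbv13-1 stood at 101, 59.6 and 39.6 CPM in evolving tumours and at 0 CPM in both dependent tumours, and held 21.4%, 19.7% and 13.9% of the beta V counts in evolving tumours. All 3 evolving tumours thus led with the same 2 segments in the same order. Among the 12 listed segments Trbv2 led both dependent tumours. It stood at 0.200, 0.240 and 0.404 CPM in evolving tumours, against 569 and 15.0 CPM in dependent tumours. There it held 100% and 94.1% of the beta V counts. VTL-19 had only 304 beta V counts in all, against 12168 in VTL-24. The constant genes Trbc1 and Trbc2 stood at 407 and 689 CPM in VTL-19, and at 421 and 142 CPM in VTL-24. Whether VTL-19 used a beta V segment outside the listed ones was not tested. For Trbv24 the summed counts were 18656 in evolving and 3 in dependent tumours, a ratio of CPM of 3740 with an exact 95% counting interval of 1279 to 18140, which covers counting error only. Trbv13-1 was at least 881-fold higher in evolving tumours, set against a floor of 3 counts over the dependent libraries. With edgeR, Trbv13-1 had an adjusted p of 0.240 (log2 fold change 13.50, SE 1.27) and Trbv24 of 1.00. Trbv24 passed in a single setting, without the independent tumour VTL-33, with an adjusted p of 0.0329.

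Segments were not a mark of class outside these 5 libraries. Trbv24 also led the independent tumour VTL-33, with 72.4% of its beta V counts, and Trbv2 led the independent tumour VTL-81, with 100%. Of the evolving tumours with Dox, VTL-153 and VTL-21 again led with Trbv24 (73.5% and 95.9%), whereas VTL-25 led with Trbv5 (99.6%). Some constant and joining segments divided the classes too, whereas others overlapped. Trbc1, the first constant region of the beta locus, stood at 1.05, 5.45 and 0.539 CPM in evolving tumours, against 421 and 407 CPM in dependent tumours. Its log2 fold change was −7.44 (SE 2.09, DESeq2 adjusted p = 0.0137), and it did not pass with edgeR. Trbj1-5 and Trbj1-6, joining segments of the same cluster, were at most 0.240 CPM in evolving tumours, against at least 6.59 CPM in dependent tumours. Trbj1-7, lower in evolving tumours, and Trbj2-6, higher in them, did not overlap either. Trbj1-3, Trbj1-4, Trbj2-1, Trbj2-2, Trbj2-3, Trbj2-4, Trbj2-5 and Trbj2-7 overlapped. Trbc2 overlapped, at 650, 447 and 441 CPM in evolving tumours, against 142 and 689 CPM in dependent tumours. Trbc1 and Trbc2 are near-copies, so the division of reads between them is uncertain. Among alpha and delta segments, Trdv4 stood at 34.4 and 25.5 CPM in VTL-153 and VTL-25 and at 0.0449 CPM in VTL-21, against 0 CPM in both dependent tumours, so that the class difference came from the first 2 tumours. Trav13-2 stood at 0.200, 0.120 and 0.315 CPM in evolving tumours, against 3.27 and 0.998 CPM in dependent tumours, without overlap. Trac overlapped, at 46.2, 20.4 and 7.77 CPM in evolving tumours, against 264 and 10.5 CPM in dependent tumours. Whether the shared segments reflect a shared origin of the tumours was not tested.

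**Figure D3:**
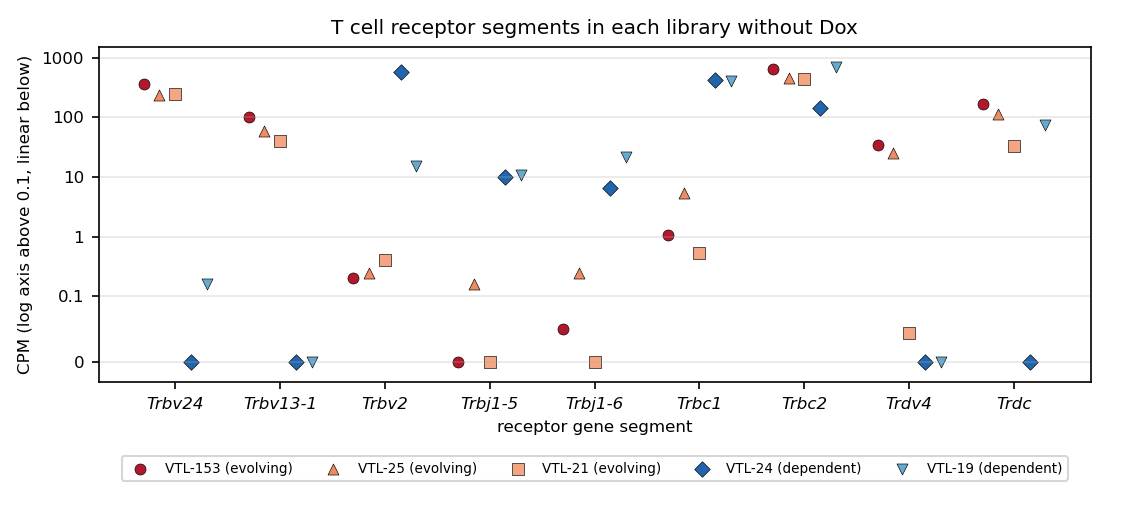
T-cell receptor segments in the 5 libraries without Dox, evolving tumours before dependent ones, in CPM on an axis that is logarithmic above 0.1 CPM and linear below. Trbv24 and Trbv13-1 are higher in the 3 evolving tumours, and Trbv2, Trbj1-5, Trbj1-6 and Trbc1 in the 2 dependent ones.

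A total of 9 genes were on in every library of one class and off in every library of the other, taking 5 CPM as on and 0.5 CPM as off. Those on in evolving tumours numbered 4 (0.0324%): Trbv13-1, Trbv24, Cd79b and the predicted gene 4930539E08Rik. Those on in dependent tumours numbered 5 (0.0405%): Trbv2, Trbj1-5, Trbj1-6, Pank1 and Stag3. Apart from receptor segments this left few genes. Pank1, a pantothenate kinase that opens coenzyme A synthesis, stood at 0, 0.120 and 0 CPM in evolving tumours, against 10.005 and 7.09 CPM in dependent tumours. Its 3 counts in evolving tumours against 349 in dependent tumours gave a CPM ratio of 193 in favour of the dependent tumours (exact 95% counting interval 65.7 to 943). Stag3, a meiotic cohesin subunit, stood at 0.250, 0.280 and 0.449 CPM in evolving tumours, against 6.499 and 15.9 CPM in dependent tumours. 4930539E08Rik stood at 17.8, 15.4 and 13.98 CPM in evolving tumours, against 0.0935 and 0.210 CPM in dependent tumours.

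Growth and biosynthesis lists gave small differences that mostly ran one way. In each list 0 genes passed with edgeR, and named members beyond the one with the smallest p were chosen after their values were seen. All 24 cytosolic ribosomal protein genes tested had a negative log2 fold change (median −0.33), and 14 did not overlap, lower in evolving tumours (58.3%, beside 9.55% of all genes). Without VTL-21 that median was −0.50, and without VTL-24 it was −0.25. Rps24 stood at 377, 351 and 390 CPM in evolving tumours, against 513 and 542 CPM in dependent tumours, with a log2 fold change of −0.50 (SE 0.13). The 7 mitochondrially encoded genes tested, of 13 listed, were all lower (median −0.91). Their classes did not overlap in any of them (100%, beside 9.55% of all genes): mt-Nd2 stood at 1277, 1304 and 1524 CPM in evolving tumours, against 1839 and 3510 CPM in dependent tumours. Mitochondrial counts made up 1.90%, 1.94% and 2.11% in evolving tumours, against 2.63% and 4.73% in dependent tumours, and without VTL-19 the median was −0.54. Nuclear genes of oxidative phosphorylation did not share this: 15 of 22 were positive (median 0.09, and 0.01 without VTL-21 or 0.23 without VTL-24). Of these 22 genes 6 were higher and 0 lower without overlap (27.3% and 0%, beside 9.94% and 9.55% of all genes). Genes of DNA replication and mitosis were positive in 24 of 26 (median 0.24), 6 of them higher without overlap (23.1%, beside 9.94% of all genes), such as Bub1b at 339, 356 and 466 CPM in evolving tumours, against 333 and 251 CPM in dependent tumours. The MYC and ribosome biogenesis list was negative in 16 of 21 (median −0.10, and 0.09 without VTL-24). Myc itself stood at 138, 103 and 173 CPM in evolving tumours, against 281 and 201 CPM in dependent tumours (log2 fold change −0.80, SE 0.44).

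Stress and metabolic lists depended more on single tumours. Of 17 genes of the integrated stress response and serine synthesis 15 were negative (median −0.62), among them Psat1, at 215, 243 and 231 CPM in evolving tumours, against 563 and 353 CPM in dependent tumours, and Atf5, a factor of that response, at 17.8, 16.1 and 20.4 CPM, against 78.3 and 22.02 CPM. Without VTL-24 that median was −0.05. Of 20 genes of cholesterol synthesis and handling 19 were positive (median 0.38, and 0.62 without VTL-19), 3 of them higher without overlap (15.0%, beside 9.94% of all genes). Srebf2, which switches this pathway on, stood at 404, 463 and 564 CPM in evolving tumours, against 345 and 370 CPM in dependent tumours, and the median without VTL-25 was 0.10. Heat shock and immediate early genes had a median of 0.36, and −0.22 without VTL-21. Jun, a member of that list, was highest in VTL-21 and stood at 16.2, 47.8 and 492 CPM in evolving tumours, against 11.4 and 18.8 CPM in dependent tumours.

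The interferon-inducible and MHC class I lists were mostly positive, which did not hold for the chemokine and homing receptors (9 of 17, median 0.02) or the gamma chain cytokine receptors with JAK-STAT genes (11 of 23, median −0.04). Of 27 interferon-inducible genes 26 were positive (median 0.50), with 3 not overlapping (11.1%, beside 9.94% of all genes). Isg20, an exonuclease, stood at 23.7, 19.1 and 20.7 CPM in evolving tumours, against 12.8 and 14.9 CPM in dependent tumours. Mx1, an antiviral GTPase, stood at 38.4, 22.3 and 51.2 CPM in evolving tumours, against 6.55 and 13.5 CPM in dependent tumours. Not all members followed: Rsad2 stood at 41.6, 28.8 and 6.38 CPM in evolving tumours, against 9.16 and 9.56 CPM in dependent tumours, so that VTL-21 lay below both. The median stayed positive in every left-out library, from 0.29 without VTL-153 to 0.66 without VTL-21. The MHC class I list was positive in 16 of 20 (median 0.15, and −0.01 without VTL-19 or 0.48 without VTL-24), with Tap2, a peptide transporter subunit, at 688, 571 and 748 CPM in evolving tumours, against 386 and 413 CPM in dependent tumours.

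Developmental lists centred near zero, with members that varied by tumour. The 20 T commitment and early thymocyte genes had a median of −0.05 and the 17 double-positive thymocyte markers one of 0.04. The recombinase genes split the classes in part. Rag2 stood at 13.1, 10.2 and 9.39 CPM in evolving tumours, against 0 and 2.89 CPM in dependent tumours, without overlap, whereas Rag1 stood at 539, 367 and 189 CPM, against 34.0 and 232 CPM. Ptcra, the pre-receptor alpha chain that Notch induces, overlapped, since VTL-19 lay above VTL-21, and VTL-24 was far lower than the other libraries: 317, 154 and 109 CPM in evolving tumours, against 8.51 and 122 CPM in dependent tumours. Arpp21, a marker of double-positive thymocytes, stood at 738, 563 and 623 CPM in evolving tumours, against 372 and 458 CPM in dependent tumours (log2 fold change 0.63, SE 0.24). The LMO2-associated progenitor list moved with the library left out, from −0.11 without VTL-24 to 2.18 without VTL-19, beside 0.49 with all libraries, and in it Kit overlapped, at 13.2, 67.8 and 88.8 CPM in evolving tumours, against 3.18 and 39.0 CPM in dependent tumours. The Notch list (median 0.08), T-cell receptor signalling (median −0.03) and chromatin regulators (median 0.02) lay close to the all-gene median of 0.01, and the Ikaros family was negative in 4 of 5 genes (median −0.17). Of the D cyclins, Ccnd1 stood at 4.90, 3.77 and 63.6 CPM in evolving tumours, against 0.561 and 1.26 CPM in dependent tumours, without overlap (log2 fold change 4.73, SE 1.76, edgeR adjusted p = 1.00, DESeq2 0.0259). Ccnd2 stood at 2.65, 2.16 and 1.80 CPM in evolving tumours, against 55.9 and 1.79 CPM in dependent tumours. The fold change of Ccnd2 rested on VTL-24 and turned positive without it (log2 0.30).

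**Figure D4:**
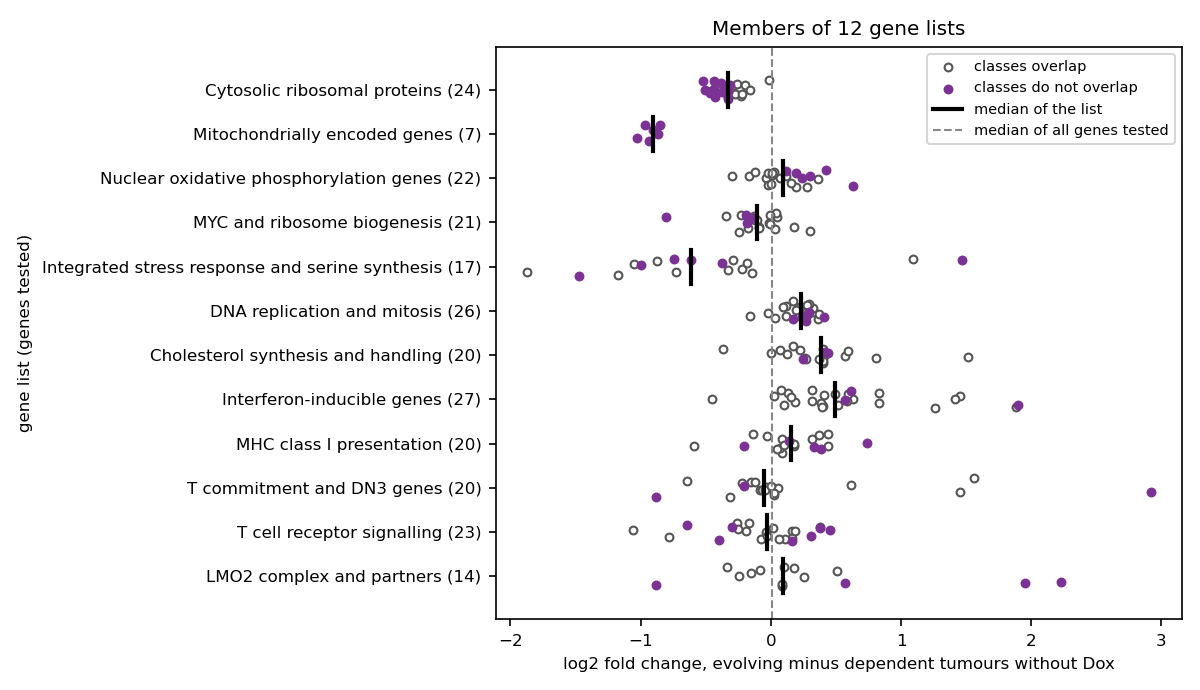
Log2 fold change, evolving minus dependent, of the members of 12 gene lists. Each point is a gene, filled where the classes do not overlap, the bar is the list's median and the dashed line the median of all genes tested. Cytosolic ribosomal and mitochondrially encoded genes lie wholly below zero (medians −0.33 and −0.91), and 26 of 27 interferon-inducible genes lie above it (median 0.50).

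Differences within a class were as sharp as those between them. VTL-21 held 15 genes above 20 CPM that were under 0.5 CPM in both VTL-153 and VTL-25, among them Ryr2, a calcium-release channel, at 69.6 CPM, and Ncam1, a neural cell adhesion molecule, at 30.9 CPM. The reverse held for 8 genes, including the receptor tyrosine kinase gene Epha2, at 81.4 and 57.3 CPM in VTL-153 and VTL-25 and 0.404 CPM in VTL-21. The dependent tumours differed in more genes still: 41 were above 20 CPM in VTL-19 and under 0.5 CPM in VTL-24, and 16 the reverse. VTL-19 held Alcam at 280 CPM, against 0.234 CPM in VTL-24, and Yap1 and Tead1, a coactivator and its DNA-binding partner in the Hippo pathway, at 96.1 and 138 CPM, against 0.234 and 0 CPM. Cdh1, which encodes E-cadherin, stood at 33.1 CPM in VTL-19 and 0 CPM in VTL-24. In VTL-24 the HMG-box factor gene Tox2 stood at 35.4 CPM and the drug exporter gene Abcb1a at 34.2 CPM, against 0.0526 CPM for each in VTL-19. These genes were picked for their spread within a class, and their values are a description.

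Part of the spread within a class followed whole chromosomes. For each chromosome, the median log2 difference of a library from the mean of the other 4 was taken over 9903 genes of at least 5 CPM on average. Chromosome 15 stood at −0.11, −0.13 and 0.58 in evolving tumours, against −0.10 and −0.22 in dependent tumours, so that VTL-21 stood out. On it 309 of 389 genes (79.4%) were highest in VTL-21, beside 21.5% of genes over all chromosomes. Chromosome 19 stood at −0.09, −0.13 and −0.11 in evolving tumours, against −0.08 and 0.43 in dependent tumours, with 260 of 360 genes (72.2%) highest in VTL-19, beside 22.2% over all chromosomes. The other 17 autosomes lay within 0.133 of zero in every library. Copy number was not measured here. Of the genes described above, Myc, Srebf2, Lynx1 and Card10 lie on chromosome 15, and Ldb1, Pank1, Psat1, Acsl5 and Zdhhc24 on chromosome 19. The part of these chromosome levels in their values was not tested.

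**Figure D5:**
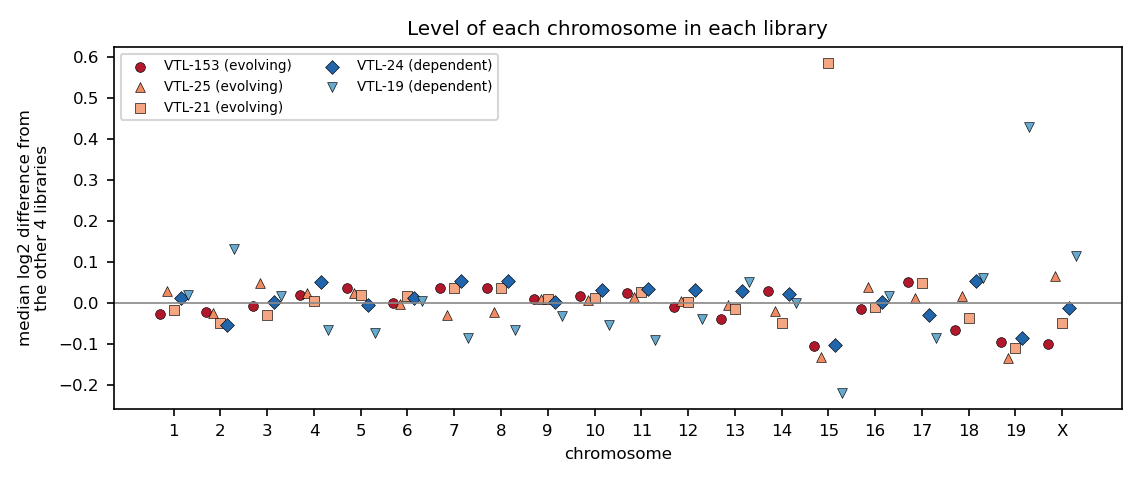
Median log2 difference of each library from the mean of the other 4, by chromosome, evolving tumours before dependent ones. Chromosome 15 in VTL-21 (0.58) and chromosome 19 in VTL-19 (0.43) lie apart from the other autosomes, which stay within 0.133.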

How the data were processed

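RNA sequencing values were raw counts per gene that the authors deposited, 1 column per library and not normalised. The submitters' processing notes name STAR 2.5.2b, mm10 and featureCounts; the annotation, strand setting and filters are not given in the sources used here, so reads of overlapping genes on opposite strands may not be separated. A further 42 columns of per-sample values were not used. Positions come from GENCODE M21, which holds 12379 of the 12421 identifiers.

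The 8 libraries without Dox were fitted with edgeR 4.0.16 in R 4.3.3 (filterByExpr with a minimum count of 10, TMM factors, robust quasi-likelihood fit, Benjamini-Hochberg adjustment over all genes tested, threshold 0.05), with evolving minus dependent as the contrast. CPM used TMM-scaled library sizes. The approximate SE is the absolute log2 fold change over the root of the F statistic, and is inexact where a class holds few counts. DESeq2 1.42.0, which gave no adjusted p for 121 genes, and limma 3.58.1 (voom) were alternatives. The others were RLE factors, no filter, a minimum count of 50, a fit that is not robust, the 5 libraries alone, 1 fit over all 14 libraries that treats the tumour as random, receptor segments left out, VTL-25 and VTL-153 summed, and each tumour left out. A lone dependent tumour is then assumed to vary like the others. The counts of genes without overlap and of on and off genes under other settings were added after seeing the data. The fit was also run on simulated data as a check of the code, and no result here rests on that run.

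Named were Lmo2, Ikzf1 and, since none passed, the 15 genes per direction with the smallest p, a log2 CPM averaging 1 or more and classes that did not overlap. Receptor and immunoglobulin segments, predicted genes, pseudogenes, mitochondrial genes, and the listed sex-linked and Y-linked genes were left out of these. From each list the member with the smallest p was named. The libraries, the 41 lists and this rule were chosen with earlier results of these data known. Intervals and floors cover counting error only.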

Additional observations from a re-analysis of the deposited data

How the results depend on the processing

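The count of genes past the threshold was 0 in every setting except DESeq2, which gave 64, and the left-out tumours, which gave 0 to 1. Counts at an unadjusted p under 0.05 ran from 261, with VTL-25 and VTL-153 summed, to 657. Lmo2 kept its direction in every setting, with log2 fold changes of 1.63 to 2.21. Ikzf1 ran from −0.39 to 0.21 with a tumour left out, and was positive without VTL-24. Of the 62 other named genes 59 kept their direction. With a tumour left out Ccnd2 ran from −4.66 to 0.30 and Col1a2 from −4.97 to 0.47, both positive without VTL-24, and Nkg7 from −0.44, without VTL-21, to 4.58; the cause was not tested. Genes without overlap numbered 3670 to 6904 with a tumour of either class left out, and on and off genes 10 to 46, since fewer libraries then have to meet the conditions. The median of all genes moved by at most 0.04 in any setting. No paired analysis was possible because evolving and dependent tumours are different tumours that share no number. With 2 dependent tumours that differed in 57 genes from on to off, precision is limited by the number of tumours.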

Other observations

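Xist stood at 2697, 2440 and 759 CPM in evolving tumours, against 2964 and 1171 CPM in dependent tumours, and the listed Y-linked genes were at most 1.58 CPM in any of these libraries. Bicc1, an RNA-binding gene outside the lists, stood at 25.7, 13.9 and 0 CPM in evolving tumours, in the order VTL-153, VTL-25, VTL-21, and at 0 CPM in both dependent tumours, so that VTL-21 had no count either. Ddx43, a helicase gene of the germ line, had 0 counts in evolving tumours and 436 in dependent tumours, but nearly all of these came from 1 tumour: it stood at 20.2 CPM in VTL-24 and 0.158 CPM in VTL-19. Both genes were chosen after their values were seen.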
